A study of Mus musculus with 6 samples.

Results

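The replication-dependent histone genes of the mouse were examined in granulosa cells. They were taken as the protein-coding genes whose deposited name starts with Hist and a cluster number from 1 to 4, which gave 67 of 54551 annotated genes. Sorted by the histone they encode, 6 were H1 genes, 18 H2A, 18 H2B, 12 H3 and 13 H4. RNA had been sequenced from granulosa cells, somatic cells that line the ovarian follicle, of C57BL/6 mice aged 21 days. Follicle growth had been induced with PMSG (5 IU, 48 h) and ovulation then triggered with hCG (5 IU), with collection 6 h later. There were 3 libraries labelled Gm12840-/-, called knockout here, and 3 labelled wild type, and both groups shared the strain, age and hormones. The labels give neither the allele that removes Gm12840, a long noncoding RNA gene, nor whether the libraries came from separate animals, so p-values speak only of the spread among these 6 samples, which may be technical. Knockout 1 to 3 and wild type 1 to 3 stand for the libraries so labelled.

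Core histones H2A, H2B, H3 and H4 form the octamer around which DNA is wrapped, and the linker histone H1 binds where DNA enters and leaves it. Most genes of these clusters are transcribed mainly in S phase, when new DNA must be packaged, and granulosa cells divide until the ovulatory signal. Their transcripts are the known exception among animal mRNAs: they end in a conserved stem-loop bound by the protein Slbp, in place of a poly(A) tail, although several of these genes are known to make polyadenylated transcripts too. The libraries were made with a TruSeq RNA kit, which is known for selecting polyadenylated RNA, although the labels do not state that step. Levels are given in FPKM, a level per kilobase of exon and scaled library size, from which whole reads were recovered.

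The 6 libraries held 16392098 to 19465847 reads. On a principal component analysis whose leading axis held 83.3% of the variance, knockout 1 and 2 lay at 23.3 and 70.8 and knockout 3 at -55.0, against -50.1, -31.1 and 42.1 for wild type 1 to 3, so the 2 libraries numbered 3 lay among those of the other label. Gm12840 (ENSMUSG00000086320) had 5, 7 and 14 reads in the libraries labelled knockout, against 17, 6 and 5 in those labelled wild type. Its means were 0.829 ± 0.546 and 0.919 ± 0.792 FPKM (SD, n = 3 each), with an exact two-sided permutation p of 0.9 where 0.1 is the smallest possible. The targeted gene thus had reads in every library labelled knockout and did not differ between the labels beyond the spread between libraries, and every direction below rests on the labels alone. All 12 granulosa markers passed the expression filter, with Inha, the inhibin alpha subunit, highest at 3973 to 8032 FPKM in libraries labelled knockout and 5701 to 10808 FPKM in those labelled wild type.

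The stem-loop was read from the GENCODE M21 transcripts, whose gene coordinates matched the deposited ones for all 67 genes. The search took 16 bases after the stop codon, GG, any 2 bases, CT, any 4 bases, AG, any 2 bases and CC. All 6 stem pairs had to be complementary, and the sense strand, which reads as the RNA, was searched. It was found in 45 of the 67 genes, 21 to 58 bases after the stop codon (median 31). The sites below are shown because they carry the 3′ end on which the family is defined, one for each main spelling and for genes described further on. Capitals mark the stem-loop, lower case 5 flanking bases on each side, and the letters are DNA of the sense strand in mm10.
Hist1h1c, chr13:23739507-23739532, plus strand: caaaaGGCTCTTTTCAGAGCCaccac
Hist1h2ao, chr13:21810893-21810918, plus strand: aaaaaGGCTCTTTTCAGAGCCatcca
Hist2h2ac, chr3:96220413-96220438, minus strand: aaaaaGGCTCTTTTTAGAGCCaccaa
Hist1h3c, chr13:23745042-23745067, minus strand: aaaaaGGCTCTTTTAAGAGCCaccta
Hist1h3g, chr13:23535884-23535909, plus strand: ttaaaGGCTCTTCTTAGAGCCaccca
Hist1h4h, chr13:23531453-23531478, plus strand: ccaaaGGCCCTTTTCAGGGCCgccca
Hist1h4i, chr13:22040961-22040986, minus strand: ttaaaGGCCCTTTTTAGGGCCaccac

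The spelling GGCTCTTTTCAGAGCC was the most common, in 25 genes: 3 of H1, 10 of H2A, 7 of H2B and 5 of H3. No H4 gene had it. The H4 genes with a stem-loop were spelled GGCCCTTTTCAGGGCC (7 genes), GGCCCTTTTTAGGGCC (2), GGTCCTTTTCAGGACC (2) and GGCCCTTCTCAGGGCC (1), and none of these 4 spellings occurred outside H4. The H4 stems differed from those of the other types at letters that pair with each other. Any stem difference had to be of this kind, since the search required all 6 pairs to be complementary.

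Histone genes together had 2729, 2290 and 5431 reads in the libraries labelled knockout 1 to 3, against 4392, 8875 and 5482 in wild type 1 to 3. In RPM, the usual scaling of reads by library size, this was 163 (95% exact binomial interval 157 to 169), 140 (134 to 146) and 319 (311 to 328), against 264 (257 to 272), 493 (483 to 503) and 282 (274 to 289). Knockout 1 and 2 were the 2 lowest libraries, and knockout 3 lay above wild type 1 and 3, so the groups overlapped. Summed over the 67 genes, the level was 119, 101 and 291 FPKM against 265, 424 and 194 FPKM. The means were 171 ± 105 FPKM in libraries labelled knockout and 294 ± 118 FPKM in those labelled wild type (SD, n = 3 each), a ratio of 0.580. Leaving out 1 library at a time moved this ratio between 0.375, without knockout 3, and 0.743, without wild type 2.

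**Figure D1:**
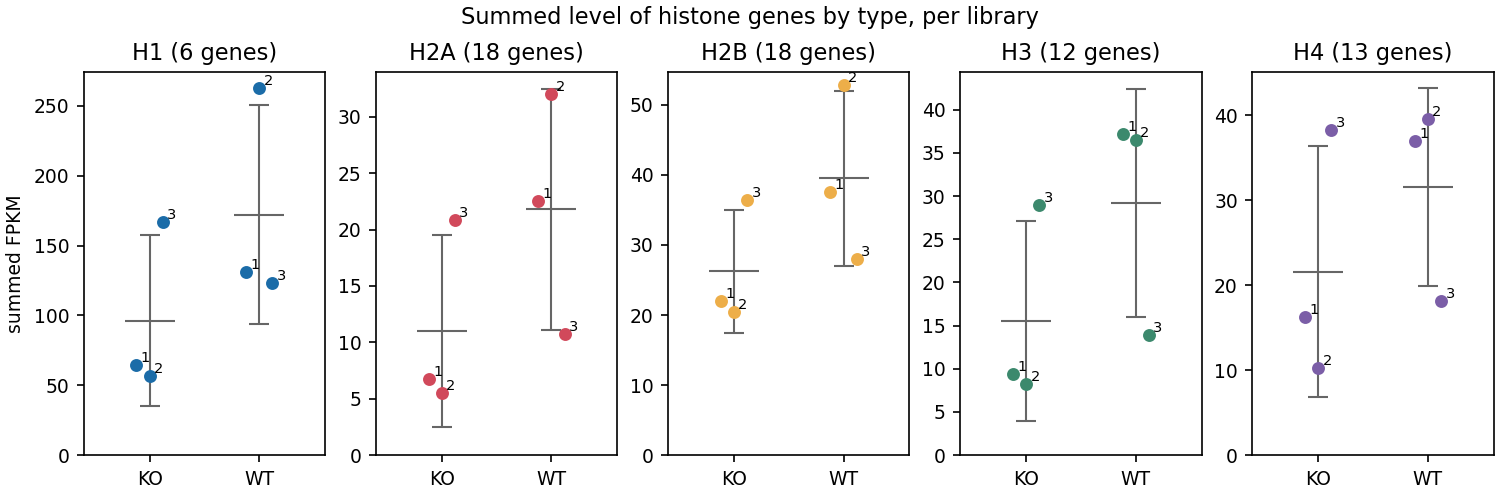
Summed FPKM of the histone genes of each type, 1 point per library with its replicate number, and the mean with its SD as a bar (KO, labelled knockout; WT, labelled wild type; n = 3 each). In every type knockout 3 lies above wild type 3, while knockout 1 and 2 lie below all 3 wild-type libraries.

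Among the 6 H1 genes of the family, RNA came mostly from 1 gene. Hist1h1c (chr13:23738808-23740367, plus strand, 1 exon of 1560 nt) held 68.1% of all 29199 histone reads and ranked 494th of all genes by mean FPKM. It stood at 63.6, 53.1 and 153 FPKM in libraries labelled knockout, against 119, 236 and 114 FPKM in those labelled wild type. Its share of the histone reads was 68.0%, 66.2% and 67.6% against 62.6%, 70.0% and 71.0%, so the share stayed between 62.6% and 71.0%. The log2 fold change of Hist1h1c was -0.87 with a 95% interval of -2.07 to 0.34. The mean of Hist1h1c over all libraries was 123 FPKM. Linker histone genes outside the family had means of 75.0 (H1f0), 47.5 (H1foo) and 46.7 FPKM (H1fx). Oocyte markers were also present in these libraries, with Gdf9 at a mean of 100 FPKM. Which cells the RNA of these linker histone genes, H1foo among them, came from was not tested.

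The other H1 genes of the family were far lower and differed more between libraries. Hist1h1b, another somatic linker histone, stood at 0.58, 2.65 and 6.82 FPKM in libraries labelled knockout, against 6.26, 18.7 and 5.67 FPKM in those labelled wild type, a 32.5-fold distance between the lowest and the highest library. Hist1h1e had 0.30, 0.71 and 2.46 FPKM against 1.88, 4.20 and 1.31 FPKM. Hist1h1a had 0.22, 0.37 and 3.07 FPKM against 3.36, 1.68 and 0.87 FPKM. In each of these 3 genes knockout 1 and 2 were the 2 lowest libraries, and knockout 3 exceeded wild type 3. Hist1h1d had 687 reads, more than any H1 gene but Hist1h1c, but its gene model of 7425 nt put it at 0.07, 0.15 and 1.46 FPKM against 0.67, 2.25 and 0.83 FPKM, under the filter described below. The model of Hist1h1e overlaps that of Hist1h2be on the same strand, so reads there may belong to either. Hist1h1t, the testis linker histone, had 1 read. Without Hist1h1c the H1 genes summed to 1.17, 3.88 and 13.8 FPKM against 12.2, 26.9 and 8.67 FPKM.

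H2A genes summed to 6.72, 5.49 and 20.8 FPKM in libraries labelled knockout and to 22.6, 32.0 and 10.8 FPKM in those labelled wild type. Hist1h2ao was the gene with the highest mean FPKM of this type, at 2.01, 1.14 and 2.71 FPKM against 6.45, 8.50 and 3.15 FPKM, and its groups did not overlap. Hist1h2ai, at 0.95, 0.56 and 0.99 FPKM against 1.71, 5.42 and 1.05 FPKM, was also lower in every library labelled knockout, although knockout 3 and wild type 3 nearly met. Hist2h2ac, from the cluster on chromosome 3, had 0.10, 0.21 and 1.87 FPKM against 2.85, 3.19 and 0.70 FPKM. In Hist2h2ac, Hist1h2ae, Hist1h2ak, Hist1h2ab and Hist3h2a knockout 3 lay above wild type 3. Under the filter, the 4 genes with most reads were Hist1h2ac (38 reads), Hist1h2ag (33), Hist1h2ad (17) and Hist1h2aa (15), the last a testis gene. GENCODE M21 places another gene on the opposite strand of all 18 H2A genes, against 1 H2B, 1 H3 and 1 H4 gene and no H1 gene, and since the kit does not mark strand, reads of these pairs cannot be told apart.

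H2B genes summed to 22.0, 20.4 and 36.3 FPKM in libraries labelled knockout and to 37.6, 52.9 and 28.0 FPKM in those labelled wild type. Hist1h2bc held 2103 reads, the second most of the family, with 14.1, 11.3 and 19.1 FPKM against 15.9, 26.9 and 16.7 FPKM. Its libraries lay within 2.39-fold of each other, closer than those of any other gene that passed the filter but Hist2h2be. Hist1h2bj had 2.43, 2.13 and 7.72 FPKM against 10.3, 11.9 and 3.66 FPKM. Hist2h2be, known from mouse olfactory neurons as an H2B gene that works outside S phase, was ordered differently: it had 0.94, 1.38 and 0.84 FPKM against 1.08, 0.90 and 1.56 FPKM. Its highest library was 1.85-fold its lowest, and knockout 3, high for most of the family, was its lowest. Hist1h2bg was ordered differently too, with 0.35, 1.86 and 0.32 FPKM against 0.11, 1.91 and 1.56 FPKM, on 70 reads in all. Hist3h2ba and Hist1h2bb had 82 and 61 reads. Under the filter the most reads were in Hist1h2bh (123), Hist1h2be (97), Hist1h2bk (44) and Hist1h2bm (39).

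H3 genes summed to 9.41, 8.28 and 28.9 FPKM in libraries labelled knockout and to 37.2, 36.5 and 13.9 FPKM in those labelled wild type. Hist1h3c, highest of the type, had 2.72, 2.43 and 8.35 FPKM against 7.91, 10.6 and 3.20 FPKM. Hist1h3i had 0.39, 0.53 and 3.79 FPKM against 9.18, 5.47 and 2.12 FPKM, with knockout 3 between wild type 2 and 3. Hist1h3g was lower in every library labelled knockout, at 1.21, 0.62 and 2.33 FPKM against 2.67, 3.91 and 2.51 FPKM. Hist1h3a and Hist1h3e had their 2 lowest libraries in knockout 1 and 2. Hist1h3h was lowest in wild type 3 instead, at 1.56, 0.80 and 4.90 FPKM against 5.08, 3.60 and 0.33 FPKM. Hist2h3c2 stayed between 0.32 and 1.15 FPKM in libraries labelled knockout and between 0.81 and 1.45 FPKM in those labelled wild type. Under the filter, Hist1h3d had 89 reads, Hist1h3f 73 and Hist1h3b 15.

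H4 genes summed to 16.2, 10.3 and 38.3 FPKM in libraries labelled knockout and to 36.9, 39.6 and 18.2 FPKM in those labelled wild type. Hist1h4i led them with 1005 reads and 11.0, 4.82 and 18.9 FPKM against 15.0, 20.3 and 10.7 FPKM. Hist1h4h had 2.50, 1.98 and 9.40 FPKM against 15.0, 6.04 and 2.14 FPKM. In both, wild type 3 fell inside the range of the libraries labelled knockout. Hist1h4k was the 1 gene past the filter with a positive estimate, at 1.03, 1.40 and 2.91 FPKM against 0.22, 3.03 and 0.73 FPKM, on 50 reads. Hist1h4n was at 0 in knockout 1, and Hist1h4c had 73 reads. Under the filter, Hist1h4d had 114 reads, Hist2h4 51, Hist1h4a 49 and, with 44 each, Hist1h4j and Hist4h4.

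**Figure D2:**
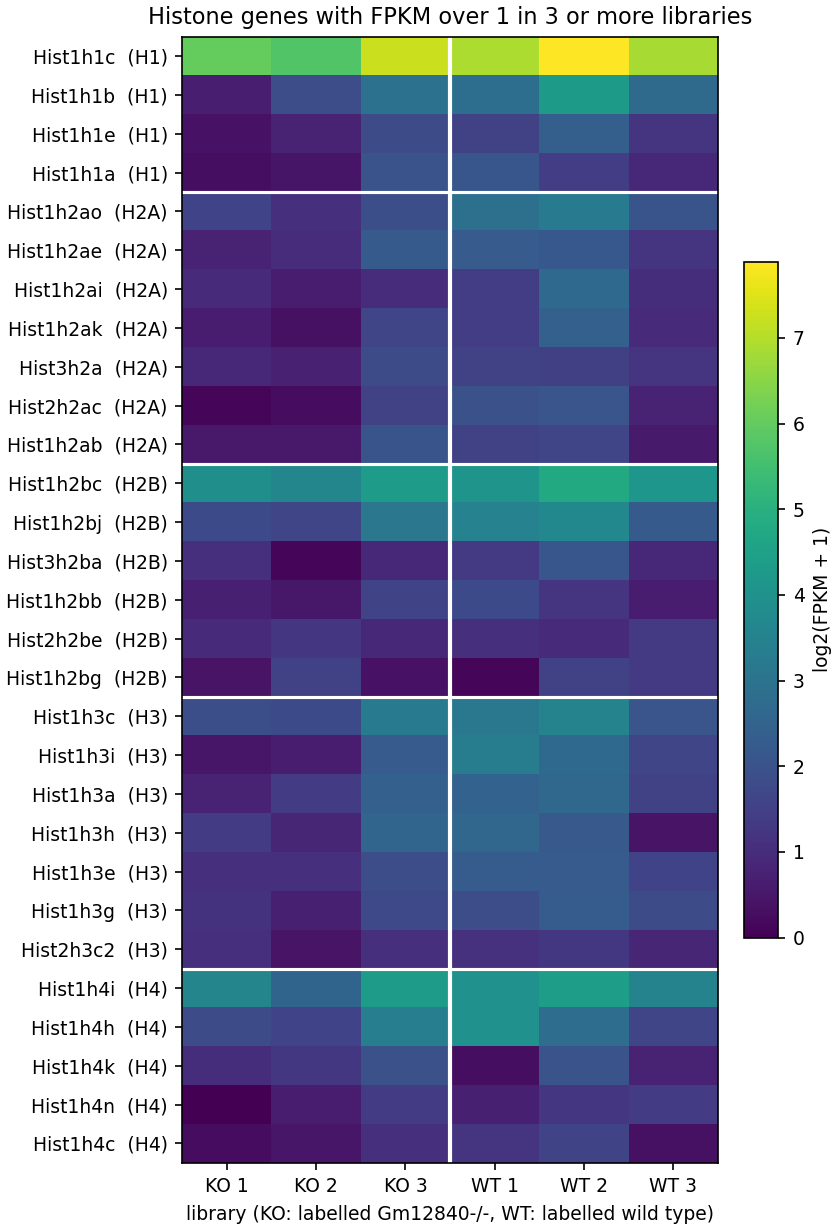
Level of the 29 histone genes with FPKM over 1 in 3 or more libraries, as log2(FPKM + 1), with genes grouped by type and the libraries labelled knockout (KO) on the left of those labelled wild type (WT). Hist1h1c stands out in all 6 columns, and the columns of knockout 1, knockout 2 and wild type 3 are darker than the rest in most rows.

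By position, the cluster on chromosome 13 (mm10 positions 21715763 to 23934851) held 54 of the genes and 96.5% of the histone reads. The cluster on chromosome 3 (96219865 to 96270132) held 10 genes and 1.90% of the reads. The pair on chromosome 11 held 1.42%, and Hist4h4 on chromosome 6 held 0.151%. Of the 67 genes, 61 had at least 1 read. The 6 at 0 in every library were Hist2h2aa1, Hist2h2aa2, Hist2h2bb, Hist2h3b, Hist2h3c1 and Hist1h2ba, and a count of 0 allows up to 3 reads, or 0.154 to 0.183 RPM, in a library.

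Histone genes of 1 type are near-identical in their coding parts, which bears on these values. For each gene, the share of its 50-base windows found in no other gene of GENCODE M21 was computed. The 5 genes with no window of their own were all among the 6 at 0 reads. They were the duplicated genes Hist2h2aa1 and Hist2h2aa2, and Hist2h2bb, Hist2h3b and Hist2h3c1. Zero reads in these 5 therefore do not show that they were silent. Hist1h2ba, the testis H2B, had 61.8% of its windows to itself and still no read. Of the 29 genes past the filter, 13 had under 50% of their windows to themselves, and Hist1h2ao (6.50%), Hist1h2ai (9.88%) and Hist1h3h (6.08%) had under 10%. Values of these genes are uncertain, since the counting could have split reads between copies or left them out.

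**Figure D3:**
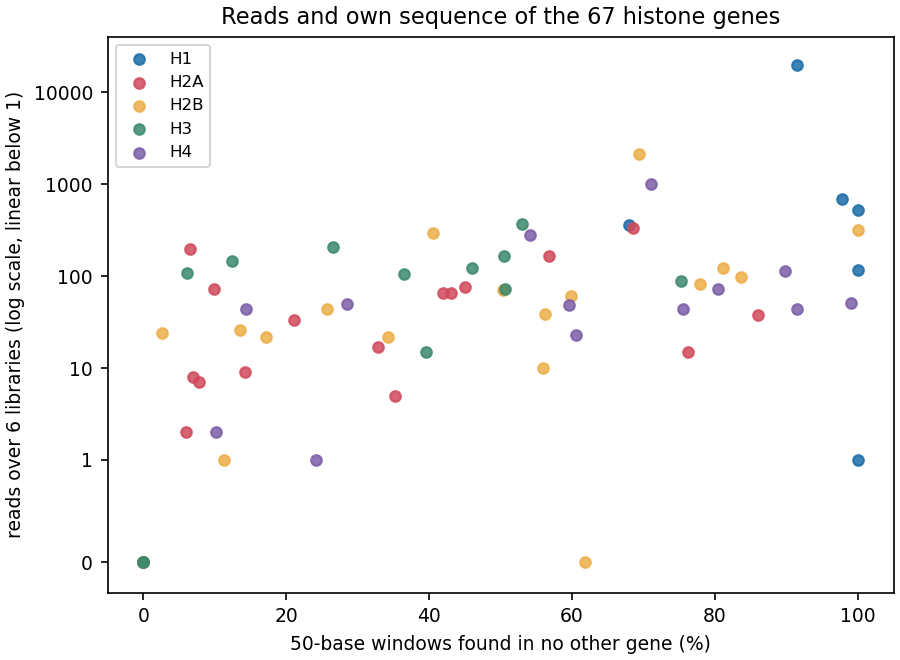
Reads over the 6 libraries (log scale, linear below 1) against the percentage of 50-base transcript windows found in no other gene, 1 point for each of the 67 histone genes, coloured by type. The 5 genes at 0% all have 0 reads, 1 gene away from 0% (Hist1h2ba) has none, and Hist1h1c lies at the top with 91.5% of its windows to itself.

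The comparison of the libraries labelled knockout with those labelled wild type was fitted with limma on log2(FPKM + 1) over the 12495 genes with FPKM over 1 in at least 3 libraries. Of the histone genes 29 passed this filter: 4 of H1, 7 of H2A, 6 of H2B, 7 of H3 and 5 of H4. The genes just inside were Hist1h2ai, Hist2h2be and Hist1h4c, whose third-highest library was at 1.05, 1.08 and 1.11 FPKM. Just outside were Hist1h2bn, Hist1h2bk and Hist1h1d at 0.932, 0.870 and 0.827 FPKM. Of the 29, 14 had at most 1 library labelled knockout over 1 FPKM, so they passed mostly through wild type, and directions among the 29 are partly set by the filter. Hist1h2ai had no library labelled knockout over 1 FPKM and all 3 labelled wild type over it, so the filter alone fixed that its groups do not overlap.

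No histone gene passed a Benjamini-Hochberg adjusted p of 0.05 by limma, in a fit where 0% of all genes did, and the adjusted p was 0.993 for each of the 29. At an unadjusted p under 0.05 there were 91 genes (0.728%), among them 2 histone genes. Hist1h2ao had a log2 fold change of -1.21 (SE 0.37, 95% interval -2.09 to -0.33) and Hist1h3g one of -0.80 (SE 0.31, -1.54 to -0.06). Reads of Hist1h2ao may be shared with near-identical copies, as above. With limma-voom on the recovered reads 0 genes were called and 75 (0.6%) had an unadjusted p under 0.05, 1 of them a histone gene.

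The estimates leaned to one side. Of the 29, 28 were negative, from -1.47 (Hist1h1b) to -0.08 (Hist2h2be), and the median was -0.57, where 55.0% of all genes tested were negative with a median of -0.04. The size of this median depended on the scale: it was -0.91 with a pseudocount of 0.1 and -0.94, with 27 negative, by limma-voom. Without a filter 52 of 61 were negative with a median of -0.28, against 46.6% and a median of 0.01 over all genes. The median 95% interval of the 29 reached 1.13 to each side, against 0.735 for all genes tested, so differences of about 2-fold could not be shown for most of them. The libraries labelled knockout lay below all of those labelled wild type in 8 of the 61 histone genes with reads, where 2.04% of all genes with reads did. These 8 were Hist1h2ao, Hist1h2ai, Hist1h3g, Hist1h2ag, Hist1h2bp, Hist1h3d, Hist1h4a and Hist1h4d. Their reads over all libraries ranged from 10 (Hist1h2bp) to 196 (Hist1h2ao). Hist1h2bp had 0, 0 and 0 reads against 1, 8 and 1, so its order rests on few reads, and the part of counting error was not tested. Hist1h2ao, Hist1h2ai and Hist1h2ag (21.1%) have few windows of their own, so the 8 may not be independent. No histone gene lay above wild type in all 3, where 2.27% of genes with reads did.

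**Figure D4:**
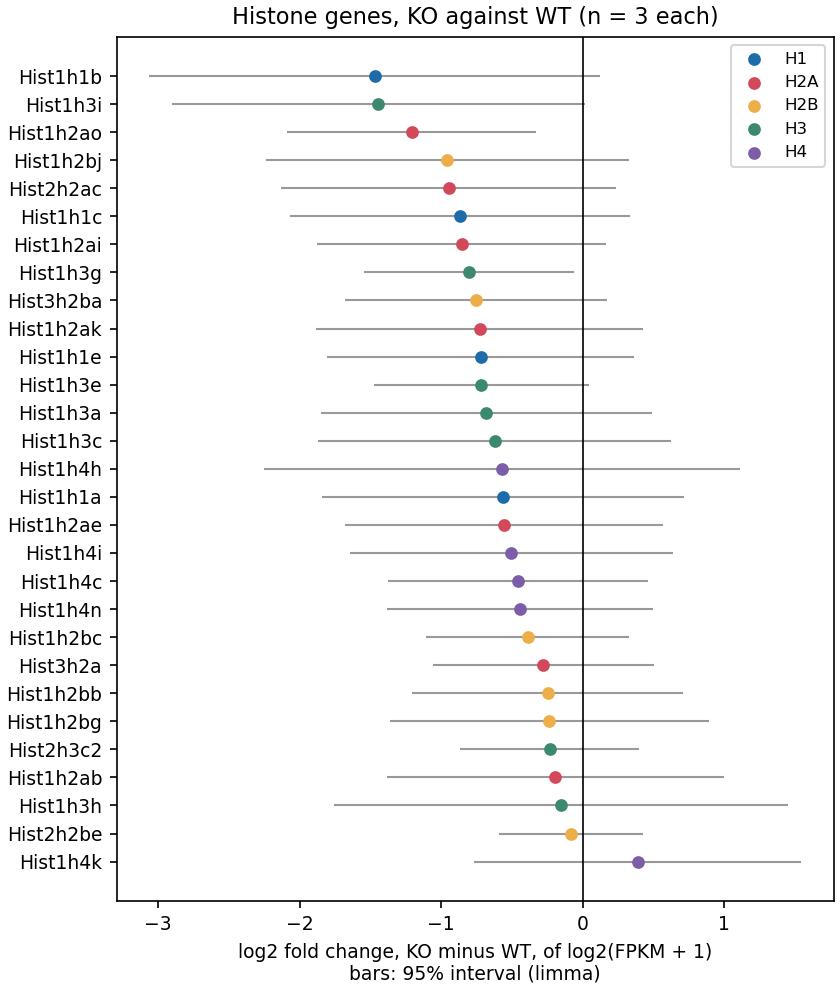
Log2 fold change of the 29 histone genes, libraries labelled knockout minus those labelled wild type (n = 3 each), on the log2(FPKM + 1) scale with 95% intervals by limma, sorted by estimate and coloured by type. All points but Hist1h4k lie left of 0, and the intervals of all but Hist1h2ao and Hist1h3g cross it.

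Libraries of 1 label also differed from each other. Measured as the deviation of each gene from its own mean over the 6 libraries, on the log2(FPKM + 1) scale, the median of the 29 was -0.61, -0.65 and 0.45 in knockout 1 to 3 and 0.29, 0.70 and -0.20 in wild type 1 to 3. Over all genes tested these medians stayed between -0.05 and 0.04. The median SD over the 6 libraries was 0.69 for the 29 and 0.38 for all genes tested. The lowest library was knockout 2 for 14 genes and knockout 1 for 11. The highest was wild type 2 for 18 genes, wild type 1 for 7, knockout 3 for 3 and wild type 3 for 1.

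Other measures were ordered in a similar way over the libraries. Reads of mitochondrially encoded genes made up 1.52%, 4.19% and 0.146% of the libraries labelled knockout, against 0.227%, 0.311% and 2.08% of those labelled wild type, so the 3 libraries with the highest share were the 3 with a negative histone median. The slope of log2 level on log2 exon length was -0.0898, 0.0658 and -0.251 against -0.260, -0.213 and -0.0230, and was highest in the same 3 libraries. Histone genes are short: the median exon length of the 29 was 614 nt, against 3639 nt for all genes tested. The 23 under 1000 nt had a median log2 fold change of -0.62 and a median SD of 0.73, and the 6 of 1000 nt or more had -0.33 and 0.41. With the length slope as a covariate 25 of the 29 estimates were negative with a median of -0.39, and 0 histone genes were called, where 0.008% of all genes were. In that limma fit 6 of the 29 had an unadjusted p under 0.05, as did 627 of all 12495 genes.

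Leaving out libraries numbered 3 changed the calls. Without both of them 21 of the 29 were called, all lower in the libraries labelled knockout, in a fit that called 27.6% of all genes and 16.3% as lower. That fit compares 2 libraries with 2 that lie apart on the leading axis, and the libraries left out were chosen with that known. With only 1 library left out no histone gene was called, and the median of the 29 moved both ways. Without knockout 3 it was -0.98 and 16 of the 29 had an unadjusted p under 0.05, where 5.25% of genes did. Without wild type 3 it was -0.90 and 9 did, where 1.62% of genes did. The lean was smaller without the others: the median was -0.37 without knockout 1 (1 histone gene under 0.05, 0.448% of genes), -0.40 without knockout 2 (1, 0.48%), -0.55 without wild type 1 (1, 0.48%) and -0.37 without wild type 2 (0, 0.248%), and the last 2 of these fits had 25 negative estimates. The part of the mitochondrial share in these values was not tested, and in 6 libraries it cannot be told apart from the length profile.

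Histone genes were also sorted by their annotated 3′ end. In 22 genes the annotated transcript ended within 100 bases of the stem-loop, and these held 6.45% of the histone reads. In 23 it ran on past the stem-loop, and these held 81.2%. The 12 of them with a poly(A) signal, AATAAA or ATTAAA, in the last 50 bases held 74.6% of all histone reads. The remaining 22 had no stem-loop in the transcript, 13 of which end at the stop codon, and held 12.4%. Most reads of the genes that run past the stem-loop were from Hist1h1c: without it, a choice made after its reads were seen, the 3 kinds held 20.2%, 40.9% and 38.9% of the other 9302 reads. Among genes past the filter, those that end at the stem-loop had a median level of 2.63 FPKM. Those that run past it had a lower median, 1.67 FPKM. The kinds are set by annotated length after the stem-loop, and FPKM divides by exon length. The difference in level can therefore be set in part by the sorting itself, and longer models can also gather more reads. Hist1h1c is of the second kind, with 840 bases after its stem-loop, and so are Hist1h4i with 330 and Hist3h2a with 1643. Hist2h2be, whose libraries differed least, has a poly(A) signal and no stem-loop in its transcript. Short windows around the signal are shown for these ends, with the signal in capitals.
Hist1h1c, chr13:23740330-23740359, plus strand: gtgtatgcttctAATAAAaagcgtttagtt
Hist1h4i, chr13:22040639-22040668, minus strand: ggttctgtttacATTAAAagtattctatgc
Hist2h2be, chr3:96223705-96223734, plus strand: gttattattattAATAAAgttaccgattag

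Summed FPKM of the genes that end at the stem-loop was 14.6, 12.8 and 50.1 in libraries labelled knockout, against 61.4, 60.1 and 22.6 in those labelled wild type. Genes that run past it summed to 82.5, 66.8 and 193 FPKM against 158, 290 and 139 FPKM. Genes with no stem-loop in the transcript summed to 21.9, 21.8 and 47.8 FPKM against 45.4, 73.9 and 32.0 FPKM. Among genes past the filter the median SD over libraries was 0.76 for 10 genes that end at the stem-loop, 0.64 for 10 that run past it and 0.76 for 9 without it. All 3 kinds thus had knockout 1 and 2 lowest, then wild type 3. The annotation does not say which 3′ end was present in these cells.

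RefSeq promoters (GRCm38.p6, 250 bases before to 50 after the start) were matched for 62 of the genes, and words known from histone promoters were searched on both strands. TATAAA was present in 35 of 62 (56.5%), where 13.6% of 32851 promoters of this length have it. A match could lie anywhere in these bases, so these are not counts of TATA boxes placed near the start. TATAAA lay on the sense strand just before the start in some of the 35, such as Hist1h2bb, but not in others, such as Hist1h4i. CCAAT was present in 53 (85.5%, against 37.4% of all promoters): in all 6 H1, 18 H2A, 16 H2B and 10 H3 promoters, and in 3 of 12 H4 promoters. ATTTGCAT, the octamer bound by Oct1, was present in 7 H2A and 6 H2B promoters and in none of the others (21.0%, against 1.74%). Some H2A and H2B promoters overlap, so the same site was counted for both genes of a pair. This was so for the octamer of Hist1h2aa and Hist1h2ba, Hist1h2ae and Hist1h2bg, and Hist1h2ah and Hist1h2bk. AAACACA, known as the H1 box, was present in 5 of 6 H1 promoters and in 9 in all (14.5%, against 7.18%). RefSeq starts lay 0 to 98 bases from the deposited ones, or 1770 for Hist1h1d, and a match describes letters only. Promoters of an H1, an H2B and an H4 gene are shown because their words differ, with matches on either strand in capitals.
Hist1h1c, chr13:23738557-23738856, plus strand: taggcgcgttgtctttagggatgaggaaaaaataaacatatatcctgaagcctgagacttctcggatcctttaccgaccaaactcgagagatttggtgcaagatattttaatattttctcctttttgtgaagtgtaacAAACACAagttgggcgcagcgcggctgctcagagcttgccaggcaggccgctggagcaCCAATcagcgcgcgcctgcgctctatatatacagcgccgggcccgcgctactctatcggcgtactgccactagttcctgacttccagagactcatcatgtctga
Hist1h2bb, chr13:23746484-23746783, plus strand: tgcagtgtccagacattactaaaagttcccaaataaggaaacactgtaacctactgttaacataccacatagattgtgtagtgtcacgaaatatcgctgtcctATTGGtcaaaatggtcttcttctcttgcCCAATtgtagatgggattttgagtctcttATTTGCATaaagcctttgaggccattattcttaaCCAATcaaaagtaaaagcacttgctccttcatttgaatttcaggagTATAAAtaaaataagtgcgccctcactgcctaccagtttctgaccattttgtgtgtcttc
Hist1h4i, chr13:22041313-22041612, minus strand: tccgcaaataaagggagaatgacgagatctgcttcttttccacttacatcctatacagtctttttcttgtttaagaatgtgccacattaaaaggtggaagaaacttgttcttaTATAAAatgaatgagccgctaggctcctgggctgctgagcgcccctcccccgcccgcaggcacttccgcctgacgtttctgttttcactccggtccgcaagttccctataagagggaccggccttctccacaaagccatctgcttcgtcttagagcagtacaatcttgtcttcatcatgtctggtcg

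Genes that act on histone mRNA were also examined. Of 24 tested genes of histone mRNA processing and transcription 0 were called, with 14 negative and a median log2 fold change of -0.09. Slbp, which binds the stem-loop, stood at 16.5, 15.1 and 11.0 FPKM in libraries labelled knockout, against 13.4, 16.0 and 13.9 FPKM in those labelled wild type. Npat, the S phase activator of histone transcription, had 3.45, 7.07 and 1.27 FPKM against 1.26, 1.67 and 3.38 FPKM, and was highest in the 3 libraries where histone genes were low. Ncbp1, a cap-binding subunit, had 67.7 ± 13.7 FPKM against 101 ± 21.3 FPKM, Srrt, its partner at the cap, 35.6 ± 3.84 against 38.3 ± 4.14 FPKM, and Mblac1, a nuclease for histone pre-mRNA in human cells, 3.56 ± 2.18 against 5.29 ± 2.13 FPKM (SD, n = 3 each).

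All 27 S phase and DNA replication genes were tested and 0 were called, with 18 negative and a median of -0.10. Their summed level was 406, 399 and 451 FPKM in libraries labelled knockout, against 481, 497 and 411 FPKM in those labelled wild type, a narrower range than that of the histone genes. Pcna, the sliding clamp of DNA polymerase, had 97.6, 82.7 and 76.4 FPKM against 108, 109 and 86.4 FPKM. Mcm7, of the replicative helicase, had 34.7 ± 9.84 FPKM against 46.2 ± 11.3 FPKM, and Ccne2, cyclin E2, 3.09 ± 1.26 against 1.88 ± 0.563 FPKM (SD, n = 3 each). Of 16 histone chaperone genes 0 were called, with 10 negative and a median of -0.06. Rbbp7, which binds H4, had 233 ± 68.0 FPKM against 218 ± 32.6 FPKM, and Ssrp1, of the FACT complex, 71.6 ± 35.6 against 80.8 ± 24.5 FPKM (SD, n = 3 each). Daxx and Atrx, which deposit the H3 variant H3.3, had log2 fold changes of -0.26 (SE 0.25) and 0.66 (SE 0.53).

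Replacement histones, many but not all of which are made throughout the cell cycle from polyadenylated mRNAs, were ordered over the libraries like the replication-dependent genes. Of 12 tested 0 were called, with 11 negative and a median of -0.31. Their median deviation was -0.26, -0.61 and 0.34 in libraries labelled knockout 1 to 3 and 0.23, 0.50 and -0.19 in wild type 1 to 3. H2afz, the gene of H2A.Z, had 592, 407 and 806 FPKM against 933, 918 and 607 FPKM. H3f3b, a gene of H3.3, had 353, 294 and 455 FPKM against 488, 514 and 343 FPKM. Cenpa, the centromeric H3, had 10.3, 7.96 and 20.5 FPKM against 19.9, 21.1 and 9.72 FPKM. In all 3 genes wild type 3 lay within the range of the libraries labelled knockout. H2afb1 and Hils1 were listed at 0.

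**Figure D5:**
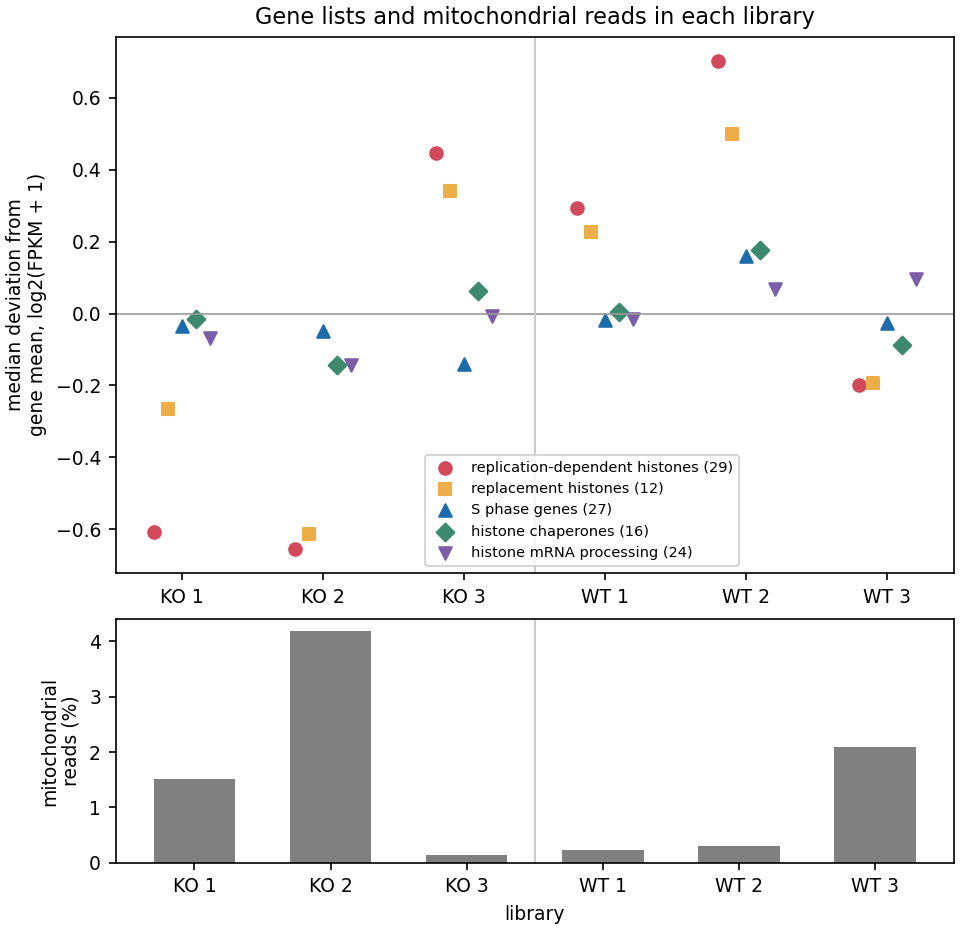
Top, median deviation from the gene mean on the log2(FPKM + 1) scale for 5 gene lists in each library, with the number of tested genes in brackets. Bottom, percentage of reads from mitochondrially encoded genes. Both histone lists are negative in knockout 1 and 2 and wild type 3, where mitochondrial reads are highest, while S phase, chaperone and processing genes stay between -0.14 and 0.18.

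RNAs that lack poly(A) tails give another view of the libraries. Of 9 listed, 3 were tested and 0 called, and Rmrp, Rnu7, Rny3 and Rpph1 were listed at 0. Rn7sk had 15.2, 7.60 and 19.0 FPKM in libraries labelled knockout, against 42.9, 11.6 and 5.26 FPKM in those labelled wild type. Malat1 and Neat1, nuclear RNAs whose long forms end without a tail, had 70.8, 183 and 33.2 FPKM against 31.0, 38.8 and 97.6 FPKM, and 3.58 ± 0.521 against 3.39 ± 0.542 FPKM (SD, n = 3 each). Malat1 was highest in knockout 1, knockout 2 and wild type 3, where the histone medians were negative.

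Markers of other cells differed between libraries too, and their part in the histone values was not tested. The 5 erythroid markers, all tested and none at 0, summed to 756, 473 and 3512 FPKM in libraries labelled knockout, against 4455, 2793 and 613 FPKM in those labelled wild type, the same 3 libraries being low. Hba-a1, an alpha globin, was the highest of them at 737 ± 876 against 1223 ± 944 FPKM (SD, n = 3 each). The 10 oocyte markers, all tested, summed to 310, 246 and 422 FPKM against 491, 432 and 272 FPKM, with Gdf9 highest at 91.6 ± 44.1 against 109 ± 36.8 FPKM (SD, n = 3 each). Stroma and smooth muscle markers, 8 of 10 tested and led by Acta2, summed to 86.8 to 111 FPKM against 60.9 to 117 FPKM. Theca markers (5 of 6 tested, led by Cyp17a1) summed to 61.5 to 65.7 FPKM against 41.0 to 84.6 FPKM, endothelial markers (6 of 7, led by Eng) to 14.2 to 19.6 against 7.06 to 16.4 FPKM, and leukocyte markers (3 of 7, led by Lyz2) to 30.0 to 42.5 against 29.7 to 45.9 FPKM. Fold changes of single markers lay on opposite sides, with 0 called in any list. Estimates were positive for 8 of 8 stroma markers (median 0.50), 6 of 6 endothelial (0.18) and 5 of 5 theca markers (0.22), and negative for 5 of 5 erythroid (-0.88), 8 of 10 oocyte (-0.25) and 10 of 12 granulosa markers (-0.31). Leukocyte markers had 2 of 3 positive (0.02). In bulk RNA, fewer cells of a kind and less RNA per cell cannot be told apart.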

How the data were processed

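For each library the authors deposited FPKM values by gene, with coordinates, exon length and biotype. The submitters' processing notes name HISAT2 2.0.5 and mm10. Counter, annotation release and read filters are not given in the sources used. Gm12840-/- and wild-type libraries were grouped by their titles. Deposited FPKM times exon length, divided by the step of each library, came out whole (within 0.01 reads) in 100% of values and gave the reads. The authors' scaled totals were 0.894 to 1.12 times these reads. Chi-square tests over genes with 20 reads or more found no 2 libraries of 1 label that agreed within sampling noise. The TruSeq kit, per the labels' protocols, does not mark strand.

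Genes with FPKM over 1 in at least 3 libraries were fitted with limma 3.58.1 (R 4.3.3) on log2(FPKM + 1), with genotype alone in the model and the prior variance following the mean. This scale understates fold changes of low genes. P-values were two-sided, adjusted by Benjamini-Hochberg over all genes tested, with a threshold of 0.05. Intervals on reads are exact binomial at 95% and, like the floor of 3 reads, cover counting error only. Named were all histone genes past the filter, up to 4 per type under it, Slbp, Npat, the top genes of each list and Gm12840. Some others were named after their values were seen. Members, lists and left-out libraries were chosen with earlier results of these data known. Alternatives were other pseudocounts, filters, library totals, the length slope, limma-voom, a replicate block, protein-coding genes only and leaving out libraries. Figures used matplotlib 3.10.9.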

Additional observations from a re-analysis of the deposited data

How the results depend on the processing

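No histone gene was called by limma under other pseudocounts, filters, library totals, the length slope, protein-coding genes only or without any 1 library, nor in the single limma-voom fit. Without replicate 3 of both groups 3451 genes were called, 27.6% of all genes tested. Among them were 21 of 29 histone genes, 5 of 24 genes of histone mRNA processing and 4 of 12 replacement histones. The others listed were 6 of 27 S phase genes, 4 of 16 chaperones and 1 of 3 RNAs without a poly(A) tail. With the length slope 1 gene was called. Same-numbered libraries did not deviate together (r = -0.422, -0.672 and -0.894, with 0 of 6 closest to their own number), and with the replicate number as a block 0 genes were called. Ratios of summed FPKM kept their direction throughout; for all histone genes the ratio was 0.320 without both libraries numbered 3. Estimates changed sign with the length slope for Hist1h2ab (0.15), Hist1h2bb (0.029) and Hist1h3h (0.36), and by limma-voom for Hist1h3h (0.072). Leaving out 1 library at a time moved the estimate between -0.70 and 0.060 for Hist1h2ab, -0.58 and 0.036 for Hist1h2bb, -0.67 and 0.028 for Hist1h2bg, -0.81 and 0.28 for Hist1h3h, -1.16 and 0.019 for Hist1h4h, and -0.19 and 0.037 for Hist2h2be. Without both libraries numbered 3, Hist1h2bg was at 0.13, Hist2h2be at 0.11 and Hist1h4k at -0.0047. The cause of these changes was not tested. Many histone genes rest on under 100 reads over 6 libraries, so counting error and shared sequence limit single genes.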
